A study of Rattus norvegicus with 12 samples.

Results

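The pyruvate dehydrogenase kinases and phosphatases are 7 genes of the deposited table, found by their symbols: Pdk1 (gene identifier 116551), Pdk2 (81530), Pdk3 (296849), Pdk4 (89813), Pdp1 (54705), Pdp2 (246311) and Pdpr (307852). All 7 were found among the 21239 genes with counts, and all 7 passed the filter on low counts in every comparison. RNA was sequenced from tissue labelled left atrium of 12 rats, 3 in each of 4 groups, all 14 weeks old at purchase and dosed daily for 4 weeks. The WKY group held Wistar-Kyoto rats, the normotensive control strain, given saline (7.5 ml/kg/day). The SHR group held spontaneously hypertensive rats given the same saline, the ARB group held SHRs given the angiotensin receptor blocker valsartan (30 mg/kg/day), and the ARNI group held SHRs given the angiotensin receptor-neprilysin inhibitor sacubitril/valsartan (60 mg/kg/day). Strain and blood pressure differ together between WKY and SHR.

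The pyruvate dehydrogenase complex turns pyruvate into acetyl-CoA inside mitochondria and so sets how much glucose carbon the heart burns. The 4 kinases phosphorylate the E1 alpha subunit (Pdha1) and switch the complex off, and the phosphatases, built from the catalytic subunits Pdp1 or Pdp2, switch it back on, with Pdpr acting as a regulatory subunit. Pdk4 is known as the kinase that fasting, fatty acids and glucocorticoids induce in heart and muscle, Pdk1 as a target of the hypoxia factor HIF-1, Pdk2 as the widely expressed form and Pdk3 as a form best known from testis, brain and kidney.

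The promoter windows of the 4 kinase genes are shown because Pdk3 and the other kinases moved in opposite directions across the libraries. They run from 250 bases before to 50 after the annotated start and come from RefSeq (GRCr8, the reference rat strain, not the strains sequenced), while the submitters' processing notes name Rnor_6.0. The windows are chr3:77113264-77113563 (plus strand, Pdk1), chr10:80483863-80484162 (minus strand, Pdk2), chrX:62547322-62547621 (minus strand, Pdk3) and chr4:34568280-34568579 (minus strand, Pdk4). Each is printed 5′ to 3′ on the strand of the gene, with capitals marking the GC box GGGCGG and the hypoxia core ACGTG on either strand.
Pdk1: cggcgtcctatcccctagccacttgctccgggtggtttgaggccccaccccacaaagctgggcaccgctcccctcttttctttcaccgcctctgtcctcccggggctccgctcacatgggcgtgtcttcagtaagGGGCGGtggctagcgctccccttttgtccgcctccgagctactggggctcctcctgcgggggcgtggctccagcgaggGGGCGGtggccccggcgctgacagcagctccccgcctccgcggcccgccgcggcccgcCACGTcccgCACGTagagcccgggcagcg
Pdk2: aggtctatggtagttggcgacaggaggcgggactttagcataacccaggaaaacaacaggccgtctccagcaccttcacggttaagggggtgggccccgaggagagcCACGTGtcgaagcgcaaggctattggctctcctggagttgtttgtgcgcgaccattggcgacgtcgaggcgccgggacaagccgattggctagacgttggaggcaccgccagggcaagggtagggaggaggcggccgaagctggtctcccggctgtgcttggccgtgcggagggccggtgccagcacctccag
Pdk3: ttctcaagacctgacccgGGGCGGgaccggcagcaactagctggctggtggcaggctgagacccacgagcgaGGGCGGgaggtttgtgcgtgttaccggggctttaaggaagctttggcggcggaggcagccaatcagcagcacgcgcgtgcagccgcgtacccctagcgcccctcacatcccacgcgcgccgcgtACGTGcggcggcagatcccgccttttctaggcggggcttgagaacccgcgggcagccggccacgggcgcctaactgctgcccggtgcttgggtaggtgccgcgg
Pdk4: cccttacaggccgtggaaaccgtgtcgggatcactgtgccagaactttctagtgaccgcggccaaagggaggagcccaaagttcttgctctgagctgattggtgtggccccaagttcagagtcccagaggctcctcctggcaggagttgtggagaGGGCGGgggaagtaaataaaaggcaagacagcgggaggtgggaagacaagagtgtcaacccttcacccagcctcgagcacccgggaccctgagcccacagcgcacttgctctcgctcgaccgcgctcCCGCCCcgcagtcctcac
The hypoxia core occurred 2 times in the window of Pdk1, 2 times in that of Pdk2, once in that of Pdk3 and 0 times in that of Pdk4, against at least 1 match in 19.3% of 33469 promoter windows of the same length. In Pdk2 both matches were the same letters CACGTG, read on each strand. The GC box occurred 2 times each in Pdk1, Pdk3 and Pdk4 and 0 times in Pdk2, against 33.1% of all windows. The nuclear receptor half-site AGGTCA (16.2% of all windows), that half-site repeated in the same direction after any 1 base (0.0538%), and the forkhead motif GTAAACA (3.78%) occurred 0 times in each of the 4 windows. The windows held 72.0%, 64.0%, 69.3% and 61.3% G and C in the order Pdk1 to Pdk4, above the median of 51.7% over all windows. Of the other members only Pdpr was listed in the promoter table, and its window held none of the 5 motifs.

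Properties of the libraries bear on every result below. Total counts lay between 11252361 and 15823525 per library. Reads were expected counts, and levels are CPM, counts scaled to the same total in each library, which are compared between libraries and not between genes because transcript lengths were not used here. In the 6 libraries of saline-treated rats the strain written in the title contradicts the library name, and grouping followed the name, so the sign of SHR against WKY rests on the names. Cd36, the fatty acid transporter that is known to be deficient in the SHR strain, stood at 1382 to 1584 CPM in the libraries named WKY and at 63.6 to 285 CPM in the 9 others. The 6 atrial markers (Myl7, Myl4, Sln, Nppa, Bmp10 and Mybphl) summed to 52.4 to 280 CPM in WKY and to 74.2 CPM in ARNI 2, against 27693 to 77097 CPM in the other 8 libraries. The 4 ventricular markers (Myl2, Myl3, Irx4 and Hey2) summed to 10852 to 11177 CPM in WKY, 12656 CPM in ARNI 2, 6514 CPM in SHR 2 and 7822 CPM in ARB 3, and to at most 172 CPM in the rest. The label left atrium therefore goes against the markers in the 3 WKY libraries and ARNI 2, which lack the atrial markers, and SHR 2 and ARB 3 carried both sets. Strain and chamber markers cannot be told apart between WKY and SHR.

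Pdk4 differed up to several-fold between libraries of the same group. It stood at 176, 183 and 232 CPM in WKY, at 32.4, 105 and 44.8 CPM in SHR, at 27.6, 39.2 and 69.5 CPM in ARB and at 48.1, 222 and 145 CPM in ARNI (replicates 1 to 3). Every WKY library was above every SHR and ARB library, and ARNI reached from the level of SHR to that of WKY. By group means the order was WKY (197 ± 30.5, SD, n = 3), ARNI (138 ± 87.0), SHR (60.6 ± 38.6) and ARB (45.5 ± 21.6), and each pair of neighbours in that order overlapped.

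Pdk1 was measured at 396, 360 and 430 CPM in WKY. It stood at 122, 282 and 102 CPM in SHR, at 104, 129 and 264 CPM in ARB and at 116.7, 406 and 119 CPM in ARNI. In each of the SHR-strain groups 1 library stood far above the rest, and these were SHR 2, ARB 3 and ARNI 2, the ones with ventricular markers. Group means were 395 ± 35.0 CPM in WKY, 214 ± 167 in ARNI, 169 ± 98.4 in SHR and 166 ± 86.3 in ARB (SD, n = 3), and ARNI overlapped with all 3 other groups.

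Pdk2 varied less. It stood at 809, 748 and 809 CPM in WKY, at 520, 651 and 433 CPM in SHR, at 523, 481 and 653 CPM in ARB and at 473, 794 and 491 CPM in ARNI. The same 3 libraries were the highest of their groups. The means were 789 ± 34.8 CPM in WKY, 586 ± 180 in ARNI, 552 ± 89.8 in ARB and 535 ± 110 in SHR (SD, n = 3), and ARNI, ARB and SHR overlapped.

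Pdk3 ran the other way. It stood at 3.67, 3.39 and 3.82 CPM in WKY, at 16.9, 9.62 and 21.5 CPM in SHR, at 15.9, 16.7 and 11.5 CPM in ARB and at 14.5, 2.44 and 17.2 CPM in ARNI. In the SHR, ARB and ARNI groups the library that was highest in Pdk1 was the lowest in Pdk3, and ARNI 2 was below every WKY library. These levels rest on few reads, 39 to 43 in the WKY libraries and 31 in ARNI 2, against 122 to 318 in the other 8 libraries. The group means were 16.03 ± 6.01 CPM in SHR, 14.7 ± 2.80 in ARB, 11.4 ± 7.86 in ARNI and 3.63 ± 0.218 in WKY (SD, n = 3).

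Among the phosphatases, Pdp1, the calcium-activated catalytic subunit, was the steadiest member. It stood at 80.4, 79.9 and 79.9 CPM in WKY, at 89.1, 118 and 73.9 CPM in SHR, at 81.9, 89.8 and 104 CPM in ARB and at 69.9, 91.2 and 80.3 CPM in ARNI. SHR and ARNI surrounded the level of WKY, every ARB library was above every WKY library, and the SHR-strain groups overlapped. Pdp2, the other catalytic subunit, stood at 30.9, 31.8 and 30.7 CPM in WKY, at 10.4, 20.8 and 17.9 CPM in SHR, at 10.98, 9.97 and 15.7 CPM in ARB and at 8.91, 39.9 and 13.98 CPM in ARNI. WKY lay above SHR and ARB in every library, and ARNI 2 was the highest of all 12. Pdpr stood at 92.7, 111 and 109 CPM in WKY, at 55.2, 81.4 and 58.2 CPM in SHR, at 50.7, 68.6 and 54.5 CPM in ARB and at 67.2, 104 and 73.2 CPM in ARNI. Its highest SHR library stayed below its lowest WKY library.

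**Figure D1:**
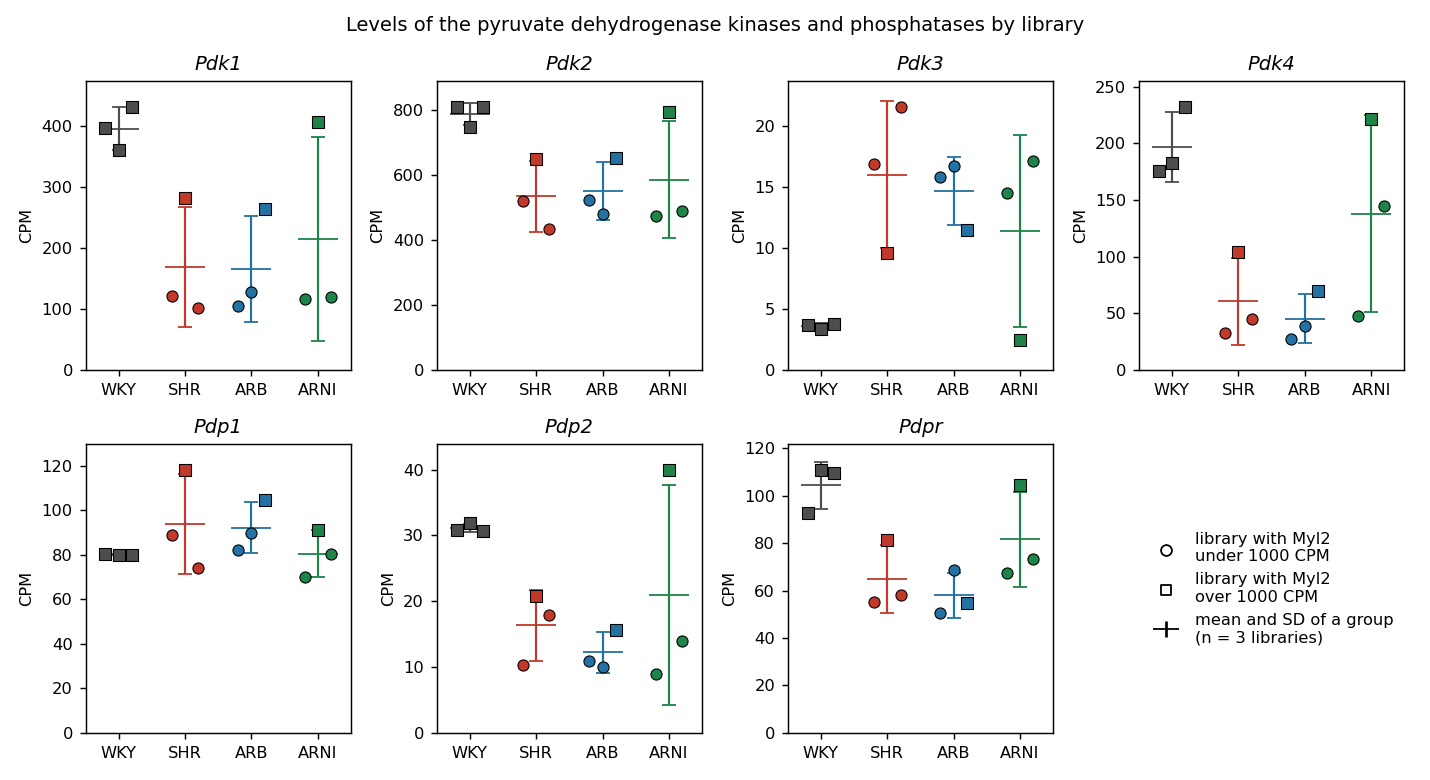
Level of each member (CPM, from 0) in the 12 libraries by group. Points are libraries, bars the mean and SD of 3, and squares mark libraries with Myl2 over 1000 CPM, which were the highest of the SHR, ARB and ARNI groups in Pdk1 and Pdk2 and the lowest in Pdk3.

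Read by chamber markers rather than by group, the levels of the members fell into steps. Of the 12 libraries, 6 had Myl2, the ventricular light chain, under 1000 CPM, 2 had both Myl2 and its atrial counterpart Myl7 over 1000 CPM, and 4 had Myl2 over 1000 and Myl7 under 20 CPM. Pdk1 ranged from 102 to 129 CPM in the first set, from 264 to 282 in the second and from 360 to 430 in the third. Pdk2 ranged from 433 to 523, from 651 to 653 and from 748 to 809 CPM. The first 2 sets held only libraries of SHRs, and the third held the 3 WKY libraries and ARNI 2.

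Pdk3 went down over the same steps, from 14.5 to 21.5 CPM in the first set, 9.62 to 11.5 in the second and 2.44 to 3.82 in the third. No 2 of the 3 sets overlapped in 3 of 7 members (Pdk1, Pdk2 and Pdk3), against 10.4% of 14452 genes. Pdp2 ranged from 8.91 to 17.9, from 15.7 to 20.8 and from 30.7 to 39.9 CPM, with an overlap of the first 2 sets. Pdk4 ranged from 27.6 to 145, from 69.5 to 105 and from 176 to 232 CPM, with the same overlap. Pdpr overlapped there too, at 50.7 to 73.2, 54.5 to 81.4 and 92.7 to 111 CPM. Pdp1 alone was highest in the set with both markers, at 104 to 118 CPM, against 69.9 to 89.8 and 79.9 to 91.2 CPM. These sets were made from marker levels after the values were seen and were given no test. The sum of 4 markers of mitochondrial content (Cs, Vdac1, Tomm20 and Cox4i1) moved alongside. It was 2936 to 3014 CPM in WKY and 3283 CPM in ARNI 2. In SHR 2 and ARB 3 it was 2690 and 2730 CPM, and in the rest 1610 to 2044 CPM. Of these genes only Cs and Vdac1 rose over the sets without overlap. Tomm20 was highest in the set with both markers, at 133 to 139 CPM, against 129 to 132 CPM in WKY and ARNI 2. Cox4i1 overlapped between these sets, at 1183 to 1386 and 1120 to 1417 CPM. The part of mitochondrial content in the result was not tested.

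**Figure D2:**
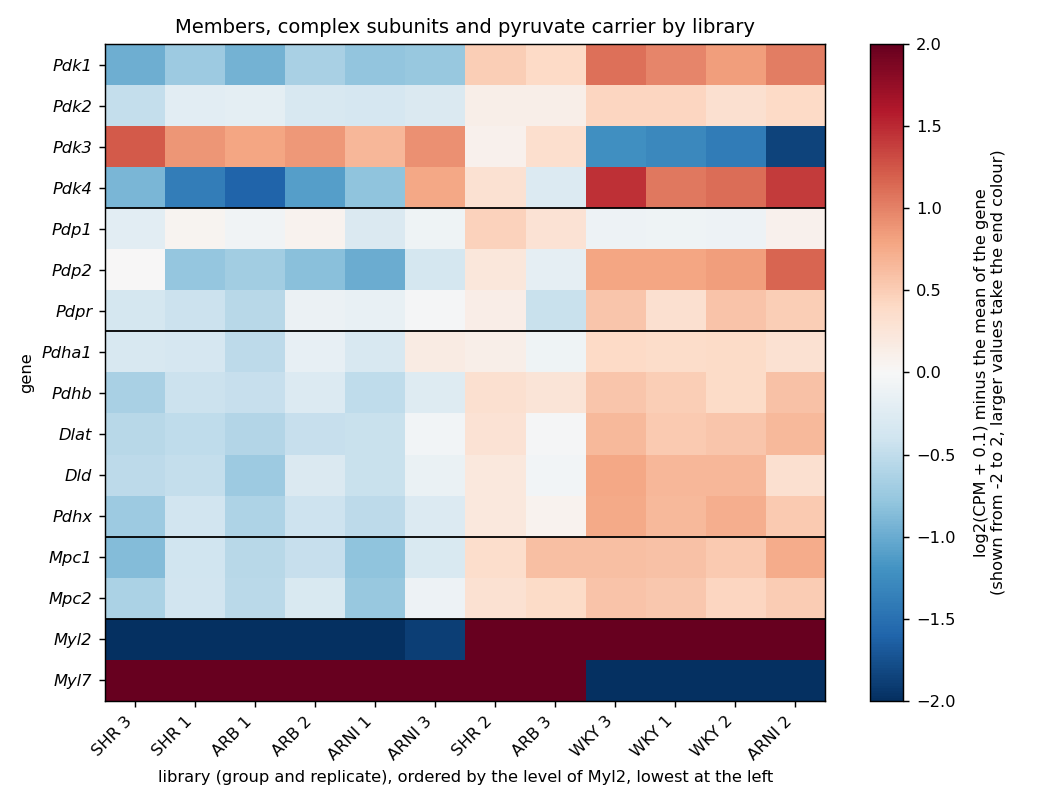
Members, subunits of the complex, the mitochondrial pyruvate carrier (Mpc1 and Mpc2) and the 2 chamber markers in the 12 libraries, ordered by Myl2. Colour is log2(CPM + 0.1) minus the mean of the gene, and most rows change with Myl2 whereas Pdk3 changes against it and Pdp1 shows little order.

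The comparison of SHR with WKY asks how the hypertensive strain differs from its control under saline. In the test of the 6 libraries (edgeR's quasi-likelihood test, called at an adjusted p of at most 0.05 over all genes), Pdk3 was higher in SHR and Pdk4, Pdp2 and Pdpr were lower. Thus 4 of 7 members were called, against 20.6% of the 13794 genes tested, 1 higher (12.3% of genes) and 3 lower (8.26%). Pdk3, Pdk4 and Pdp2 also passed the study's fold criterion, which asks for a log2 fold change of 1 or more in size, as did 8.89% of genes. The groups did not overlap in 6 of 7 members, against 49.6% of genes. The median log2 fold change was -0.81 over the members and 0.015 over all genes tested.

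By role, the kinases split. Pdk3 was 3.97-fold higher in SHR (log2 fold change 1.99, SE 0.28, adjusted p = 0.00824) and Pdk4 was 3.51-fold lower (log2 fold change -1.81, SE 0.46, adjusted p = 0.0378). Pdk1 had a log2 fold change of -1.34 (SE 0.42, adjusted p = 0.0622) and Pdk2 of -0.68 (SE 0.20, adjusted p = 0.0550), which missed the threshold although no SHR library reached a WKY one. Of the phosphatase genes, Pdp2 was 2.09-fold lower (log2 fold change -1.06, SE 0.25, adjusted p = 0.0320) and Pdpr 1.75-fold lower (-0.81, SE 0.20, adjusted p = 0.0347). Pdp1 had a log2 fold change of 0.10 (SE 0.20, adjusted p = 0.730), within the spread of the libraries. Some marker sums of other cell types differed between these groups as well. For epicardial and mesothelial cells (Wt1, Upk3b and Msln) they were 111 to 239 CPM in SHR and 41.6 to 49.6 CPM in WKY. There Upk3b and Msln were higher in SHR, but Wt1 overlapped (log2 fold change -0.27). For smooth muscle they were 100.1 to 138 and 151 to 202 CPM, with Myh11 and Tagln lower in SHR and Acta2 overlapping (-0.06). Erythroid sums (Hba-a1, Hbb and Alas2) overlapped, at 315 to 853 and 818 to 1717 CPM. The part of these cell types in the result was not tested.

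The library SHR 2, with ventricular markers, weighed on these values. Without it 6 members were called, with Pdk1 at -1.98 (adjusted p = 0.000312), Pdk2 at -0.89 (adjusted p = 0.00369) and Pdk4 at -2.53 (adjusted p = 0.000251) on the log2 scale. Pdp1 then stood at -0.14 (adjusted p = 0.436). Leaving out WKY 2 left 0 members called, WKY 1, WKY 3 or SHR 3 left 1, and SHR 1 left 2. Over all genes the number called moved too, from 415 to 5310 with 1 library left out against 2837 with none left out. That number also fell in the fits of all 12 libraries described next, as given at the end. A fit of all 12 libraries called 1 member. With an atrial minus ventricular marker score added to that fit, 0 members were called and the log2 fold changes were 0.67 for Pdk1, 0.22 for Pdk2, 0.04 for Pdk3, 0.05 for Pdk4 and 0.75 for Pdp2. That score ran from -8.29 to -7.99 in WKY and from 2.63 to 11.8 in SHR, so the fit had no library of either group at the score of the other.

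**Figure D3:**
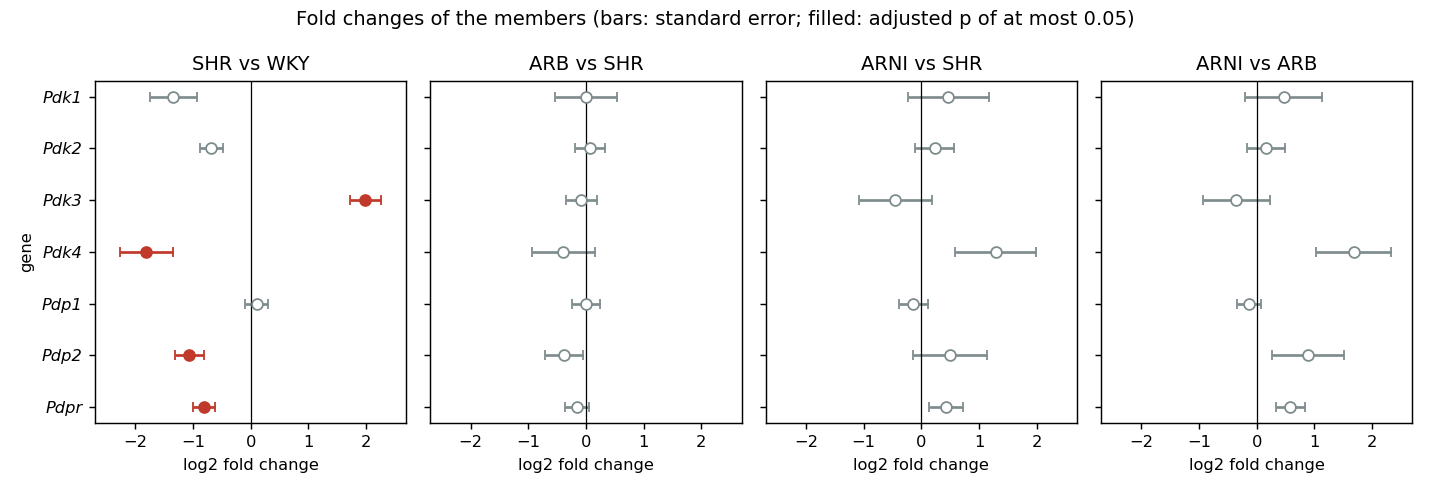
Log2 fold change of each member with its standard error (bars) in the 4 comparisons, filled where the adjusted p is at most 0.05. Filled points occur for Pdk3, Pdk4, Pdp2 and Pdpr in SHR against WKY and in no other comparison, where 3 libraries stand on each side.

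Of the 5 subunits of the complex that these enzymes act on, 3 were called lower and 0 higher, with a median log2 fold change of -0.89. Over all genes tested 8.26% were called lower and 12.3% higher, and these shares also stand beside the other lists below. Pdha1, the subunit that the kinases phosphorylate, stood at 1353 to 1379 CPM in WKY and 829 to 1130 CPM in SHR (log2 fold change -0.68, adjusted p = 0.0492). Dld, the shared E3 subunit, had -1.05 (adjusted p = 0.0316) and Pdhx, the E3-binding protein, -1.07 (adjusted p = 0.0351). The E1 beta subunit Pdhb (-0.78, adjusted p = 0.0938) and the E2 subunit Dlat (-0.89, adjusted p = 0.0611) were not called. Of 8 tested genes of pyruvate supply 1 was called, the lactate and pyruvate transporter Slc16a1 (-1.49, adjusted p = 0.0465), and the median was -0.75. The pyruvate carrier genes had -0.90 (Mpc1) and -0.81 (Mpc2) and were not called. Of the 3 genes of lipoate supply, the cofactor of Dlat, 0 were called (Lias -0.69, Lipt1 -0.35), and of the 2 relatives that act on the branched-chain complex 0 were called (Ppm1k -0.56, Bckdk -0.06).

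Among 11 known upstream regulators of the kinase genes, 1 was called higher (12.3% of all genes) and 5 lower (8.26%), with a median of -0.56. The hypoxia factor Hif1a was higher by 0.38 on the log2 scale (adjusted p = 0.0237). The lipid-sensing receptors Ppara (-1.04, adjusted p = 0.0429) and Pparg (-1.16, adjusted p = 0.0182), their coactivator Ppargc1a (-0.64, adjusted p = 0.0397) and the forkhead factors Foxo1 (-0.64, adjusted p = 0.00735) and Foxo3 (-0.41, adjusted p = 0.0399) were lower. In Foxo3 the groups overlapped, with SHR 3 at 32.7 and WKY 3 at 32.5 CPM. Of 12 tested genes known to rise with Pdk4 on fasting or PPAR activation, 1 was called higher and 3 lower, with a median of -1.23. Cd36 (-3.89, adjusted p = 0.00600), the lipase inhibitor Angptl4 (-2.17, adjusted p = 0.0470) and the fatty acid importer Cpt1b of mitochondria (-0.79, adjusted p = 0.0360) were lower, and the mitochondrial carrier Ucp2 was higher (1.79, adjusted p = 0.00317).

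Among 8 tested genes of the glucocorticoid and clock response, 2 were called higher (12.3% of all genes) and 1 lower (8.26%), with a median of -0.11. The clock output factor Dbp (1.81, adjusted p = 0.0138) and the clock repressor Nr1d1 (0.78, adjusted p = 0.0429) were higher, and the glucocorticoid target Fkbp5 (-1.01, adjusted p = 0.0296) was lower. Of 5 immediate early genes 0 were called, with a median of 3.18 (Fosb 4.12, Fos 3.43). That median rested on SHR 3, in which Fos stood at 635 CPM against 23.2 and 21.1 CPM in SHR 1 and SHR 2. Pdk4 in SHR 3 was 44.8 CPM, above SHR 1 (32.4 CPM) and below SHR 2 (105 CPM), which carries ventricular markers.

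The comparisons of the treated groups ask what valsartan or sacubitril/valsartan changed in SHRs, and whether they differed. The 3 comparisons share libraries, since ARB and ARNI were each set against the same SHR libraries. With edgeR's quasi-likelihood test 0 of 13979 genes (0%) were called for ARB against SHR, 0 of 13955 (0%) for ARNI against SHR and 0 of 13948 (0%) for ARNI against ARB, and so 0 members in each. At an unadjusted p under 0.05 there were 225, 227 and 539 genes, and DESeq2 called 3, 9 and 23 genes, none of them a member. Groups did not overlap in 5.39%, 6.56% and 10.5% of genes in that order, and in 0 of 7 members each time.

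Pdk4 had the largest log2 fold change among the members in all 3 comparisons. It was -0.39 (SE 0.55) for ARB against SHR, 1.29 (SE 0.71, unadjusted p = 0.117 and adjusted p = 0.999 with edgeR) for ARNI against SHR and 1.68 (SE 0.65, unadjusted p = 0.0386 and adjusted p = 0.993 with edgeR) for ARNI against ARB. The difference between ARNI and ARB came with ARNI 2 and ARNI 3, at 222 and 145 CPM, both above the highest ARB library, whereas ARNI 1 at 48.1 CPM lay between ARB 2 and ARB 3. Leaving out ARNI 2, the library without atrial markers, gave 0.65 against SHR and 1.04 against ARB. With SHR 2, ARB 3 and ARNI 2 all left out, the values were 1.37 and 1.54 and the value of ARB against SHR was -0.18, each from 2 libraries a group. Of the ARNI libraries then left, ARNI 1 at 48.1 CPM was near SHR 3 (44.8 CPM) and ARB 2 (39.2 CPM). The values 1.37 and 1.54 therefore rest mainly on ARNI 3, whose other markers are described below.

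The other members moved by less. For ARB against SHR their log2 fold changes ran from -0.38 (Pdp2, SE 0.33) to 0.07 (Pdk2, SE 0.26), and for ARNI against SHR from -0.45 (Pdk3, SE 0.63) to 0.49 (Pdp2, SE 0.64). For ARNI against ARB they ran from -0.35 (Pdk3, SE 0.59) to 0.88 (Pdp2, SE 0.62), with Pdpr at 0.58 (SE 0.25, unadjusted p = 0.0574 with edgeR). Without ARNI 2 the values of Pdp2 were -0.51 against SHR and -0.13 against ARB. The medians over the members were -0.09, 0.42 and 0.47, against -0.006, 0.004 and 0.021 over all genes. For several members the standard error was as large as the difference, so changes of that size were not detectable with 3 libraries a group and this spread. The spread includes SHR 2, ARB 3 and ARNI 2, the libraries with ventricular markers, whose part in it was not tested.

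In the lists around the members edgeR called 0 genes in the treated comparisons, while DESeq2 called the clock gene Arntl (log2 fold change 3.26, adjusted p = 0.000321) and the immediate early gene Fosb (3.07, adjusted p = 0.00169) for ARNI against ARB. With edgeR, the genes with the largest log2 fold changes of each list are given as values. Subunits of the complex were led by Dlat (-0.11) and Dld (-0.09) for ARB against SHR, by Dlat (0.42) and Pdha1 (0.33) for ARNI against SHR, and by Dlat (0.54) and Pdha1 (0.39) for ARNI against ARB. Genes known to rise with Pdk4 were led by Cpt1a (-0.60) and Plin5 (-0.29), by Angptl4 (2.65) and Ucp3 (2.00), and by Angptl4 (2.86) and Ucp3 (2.27). In ARNI (replicates 1 to 3) Angptl4 stood at 1.33, 7.31 and 19.3 CPM and Ucp3 at 0.316, 20.8 and 7.87 CPM. Both therefore rested on ARNI 2, with ventricular markers, and ARNI 3, while ARNI 1 lay within the range of SHR. Ucp3 was near the floor in SHR 1 (0.134 CPM) and SHR 3 (0.0677 CPM). Upstream regulators were led by Pparg (1.23) and Ppara (-0.32), by Pparg (1.28) and Ppard (0.45), and by Ppara (0.70) and Rxra (0.49). Pparg, which fat cells also express, stood at 18.3 CPM in ARB 2 and 17.0 CPM in ARNI 3, against 2.71 to 9.75 CPM in the other 10 libraries, and those 2 libraries also had the highest sums of white adipocyte markers (434 and 237 CPM), whose part in the values of Pparg was not tested.

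Pyruvate supply was led by Slc2a1 (0.35) and Ldha (0.24), by Slc16a1 (0.74) and Ldhb (0.38), and by Slc16a1 (0.90) and Slc2a1 (-0.31), in the same order of comparisons. The glucocorticoid and clock list was led by the core clock gene Arntl, at -1.99, 1.24 and 3.25, followed by Tsc22d3 (0.82), Zbtb16 (1.02) and Zbtb16 (1.43). Arntl ranged from 2.62 to 4.10 CPM in ARB and from 12.3 to 62.7 CPM in ARNI. Immediate early genes were led by Fosb (-5.10) and Atf3 (-3.24), by Fosb (-2.08) and Fos (-1.25), and by Atf3 (3.23) and Fosb (3.05). The values against SHR rested on SHR 3, where Fosb stood at 399 CPM against 3.34 and 3.15 CPM in SHR 1 and SHR 2 and Atf3 at 129 against 3.40 and 8.34 CPM. Without SHR 3, chosen after seeing the data, Fosb was 0.14 and Atf3 -0.36 for ARB against SHR, and Fosb was 3.19 and Fos 2.01 for ARNI against SHR (adjusted p = 1.0 with edgeR). The lipoate genes and the relatives of the branched-chain complex moved by at most 0.53 (Ppm1k, ARNI against ARB) in size.

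The library ARNI 3 had a high level of Pdk4 for its markers. Its Myl2 was 24.2 CPM, so that it belonged with the 6 libraries under 1000 CPM, and in that set its Pdk4 of 145 CPM stood above 27.6 to 48.1 CPM in the other five. Pdk1 (119 CPM) and Pdk2 (491 CPM) in ARNI 3 lay within the range of that set, and Pdpr (73.2 CPM) was the highest of it, above 50.7 to 68.6 CPM in the other five. Angptl4 was 19.3 CPM there against 0.331 to 2.89 CPM, Ucp3 7.87 CPM against 0.0677 to 1.58 CPM and the lipid droplet gene Plin5 36.0 CPM against 10.1 to 20.1 CPM. Of the glucocorticoid genes, Fkbp5 (96.6 against 29.9 to 69.7 CPM) and Zbtb16 (223 against 24.0 to 94.8 CPM) were also higher there. Per1, Tsc22d3 and Sgk1 lay within the range of the set. ARNI 3 also had the lowest atrial marker sum (35220 CPM) and the highest Myl3 (143 CPM) of that set. Markers of fat cells were high in the same library. The 6 white adipocyte markers summed to 237 CPM in ARNI 3 and 434 CPM in ARB 2, against 2.72 to 24.0 CPM in the other 10 libraries, and the brown fat gene Ucp1 stood at 182 and 15.6 CPM in those libraries. The brown adipocyte markers (Ucp1 and Cidea) summed to 332 CPM in ARNI 3 against 56.8 to 120 CPM in the 11 others. Pdk4 in ARB 2 was 39.2 CPM. The smooth muscle markers (Myh11, Tagln and Acta2) summed to 658 CPM in ARNI 3 against 100.1 to 202 CPM elsewhere. The part of fat or vessel tissue, of the glucocorticoid response or of chamber content in the level of Pdk4 was not tested. In bulk tissue fewer cells of a type and less RNA per cell cannot be told apart.

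**Figure D4:**
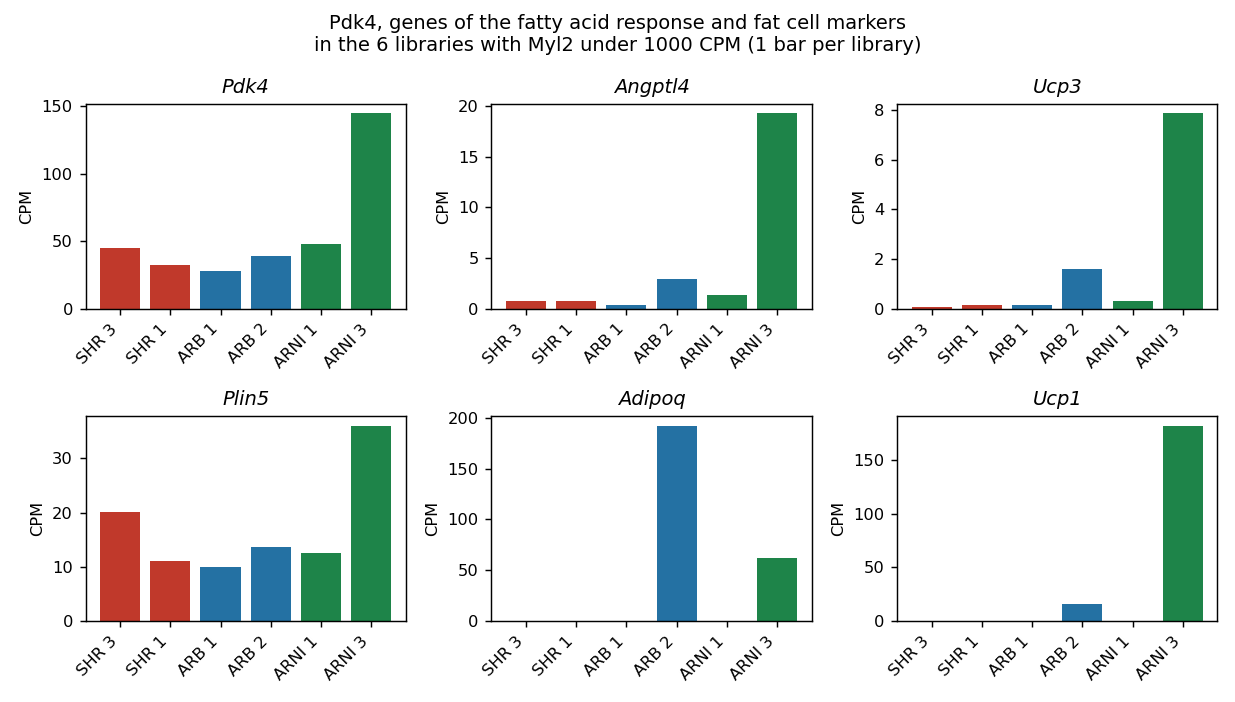
Levels (CPM, 1 bar per library, from 0) of Pdk4, the fatty acid response genes Angptl4, Ucp3 and Plin5 and the fat cell markers Adipoq and Ucp1 in the 6 libraries with Myl2 under 1000 CPM, coloured by group. ARNI 3 is the highest in all but Adipoq, where ARB 2 is at 192 CPM and ARNI 3 at 61.7 CPM.

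The make-up of the kinase reads describes the same levels as shares within a library. These shares are not per length, so they are compared between libraries and not between kinases. Pdk4 held 14.2% ± 1.51 (SD, n = 3) of the reads of the 4 kinase genes in WKY, 7.37% ± 2.65 in SHR, 5.66% ± 1.44 in ARB and 13.9% ± 5.87 in ARNI. Within ARNI the share was 7.37% to 18.7%, and the highest was that of ARNI 3. Pdk3 held 0.262% ± 0.003 in WKY and 2.31% ± 1.33 in SHR, Pdk1 28.5% ± 0.678 and 20.5% ± 5.56, and Pdk2 57.0% ± 1.91 and 69.8% ± 6.81. Between the catalytic phosphatase subunits, Pdp2 held 28.0% ± 0.415 in WKY, 15.0% ± 4.56 in SHR, 11.6% ± 1.54 in ARB and 18.9% ± 10.2 in ARNI. The 95% Wilson intervals reached 0.387 to 0.717 points to either side for the share of Pdk4 and 1.55 to 2.49 points for that of Pdp2, and cover counting error only.

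**Figure D5:**
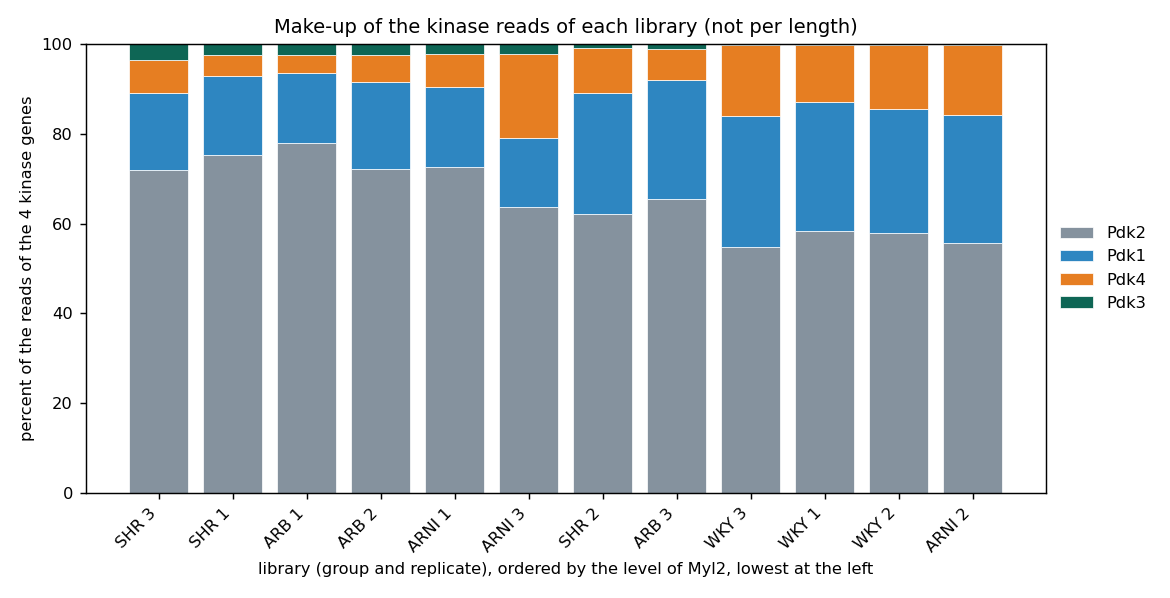
Share (percent) of the reads of the 4 kinase genes held by each of them, 1 stacked bar per library, ordered by Myl2. Pdk3 fades from left to right, and the share of Pdk4 is largest in ARNI 3, at 18.7%.

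Across the 12 libraries the members followed each other to different degrees. The correlations of log2 CPM are descriptions over libraries that share the marker sets above, and no test was made. Pdk1 and Pdk2 followed each other most closely (Pearson r = 0.977), Pdk4 was closest to Pdpr (0.928), and Pdk3 was negative with all 6 other members, from -0.337 (Pdp1) to -0.936 (Pdpr). Over the 9 libraries of SHRs the first of these was 0.960 and the second 0.885. Over the 12 libraries Pdp1 had the weakest ties to the rest of the phosphatases, 0.390 with Pdp2 and 0.278 with Pdpr. Over the 9 libraries of SHRs these were 0.562 and 0.463, and Pdp1 followed Pdk1 (0.849) and Pdk2 (0.832) more closely.

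Among 14452 genes the patterns most like that of Pdk4 were Mn1 (Pearson r = 0.983 over 12 libraries), Slc16a1 (0.982), Ankrd13a (0.981), Pdha1 (0.980) and Chst15 (0.979). Slc16a1 and Pdha1 are also genes of the lists examined around the family, and Pdha1 was 1172 CPM in ARNI 3, above the 728 to 931 CPM of the other 5 libraries with Myl2 under 1000 CPM. The genes most like Pdk1 were Mrps9 (0.997), Cmbl (0.996) and Fbxo31 (0.995), and those most like Pdk2 were Gnb3 (0.991), Dnpep (0.989) and the glycolytic enzyme gene Pfkm (0.989). Pdk3 was most like Ica1 (0.988), Sytl2 (0.986) and Susd1 (0.985). Pdp1 was most like Smim19 (0.950), LOC100911225 (0.939) and Cox14 (0.921), Pdp2 like Phldb1 (0.976), Ap1b1 (0.973) and Pter (0.973), and Pdpr like Fam210a (0.988), Zfp106 (0.984) and Vegfa (0.972).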

How the data were processed

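Total RNA of 12 rat samples labelled left atrium was extracted with Trizol and sequenced as single-end reads on the BGISEQ-500. The authors filtered reads, aligned them with HISAT2 (2.0.4) and Bowtie2 (2.2.5) and estimated a count per gene with RSEM. The deposited values are these expected counts, not normalized. The submitters' processing notes name Rnor_6.0. Of 37246 genes listed, 21239 have counts, and 19467 of those identifiers were found in a GRCr8 table used for names only. The table also holds 2 columns of the authors' own comparison (log2 fold change and p-value of SHR against WKY), which were not used.

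Expected counts were rounded and tested per pair of groups with edgeR (4.0.16, R 4.3.3, filterByExpr, TMM, quasi-likelihood test, Benjamini-Hochberg adjustment over all genes). Standard errors were derived from the F statistic. DESeq2 (1.42.0), other scalings, no filter, fits of all 12 libraries, a replicate block and leaving out each library were alternatives. The members and lists were chosen with earlier results of these data known. All 7 members were named in each comparison, and from each list the genes called or, where none was, the 2 with the largest change. The 5 genes most like Pdk4 and the 3 most like each other member were named by correlation. Labels do not say that libraries with the same number share a litter or day. Same-numbered libraries of ARNI and SHR deviated together (r = 0.509, 0.464 and 0.185), and differently numbered ones of these groups ran from -0.463 to 0.064. Same-numbered libraries of ARB and SHR had r of 0.418, -0.241 and -0.254, and those of ARNI and ARB 0.516, -0.445 and -0.153. In these comparisons differently numbered libraries with ventricular markers reached 0.512 (ARB 3 with SHR 2) and 0.585 (ARNI 2 with ARB 3). Numbers and marker content were not told apart here. The block changed no call on the members for ARNI against SHR, where 0 were called without it. The tests were also run on counts simulated for SHR against WKY, with the same dispersion for all genes and no outlying library. That setting cannot show how they behave on groups of mixed marker content. Labels do not tie libraries to litters, so p-values measure the spread between these samples.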

Additional observations from a re-analysis of the deposited data

How the results depend on the processing

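For SHR against WKY, 4 members were called, 6 with DESeq2, 4 with RLE size factors, 5 without scaling and 4 without the filter on low counts. The count was 1 in the fit of all 12 libraries, 0 with the chamber marker score added and 0 to 6 with 1 library left out (0 without WKY 2, 6 without SHR 2). With the replicate block it was 1, Pdk3, and Pdk4 (adjusted p = 0.0586), Pdp2 (0.0560) and Pdpr (0.0517) missed the threshold; the numbers were not found to pair these groups (r = 0.026, -0.047 and -0.075). The block changed no other call on the members. Over all genes 2837 were called, 1178 in the fit of 12 libraries, 142 with the score, 1030 with the block and 415 to 5310 with 1 library left out. When 1 library is left out a group holds 2.

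With the score the log2 fold changes of SHR against WKY turned to 0.67 (Pdk1), 0.22 (Pdk2), 0.0535 (Pdk4) and 0.75 (Pdp2), those of ARNI against SHR to -0.21 (Pdk1), -0.0361 (Pdk2) and -0.24 (Pdp2), and those of ARNI against ARB to -0.24 (Pdk1) and -0.12 (Pdk2). WKY and SHR did not overlap in the score, so this fit extrapolates. For ARB against SHR, Pdp1 was -0.002 and turned to 0.00546 (DESeq2), 0.00396 (RLE size factors), 0.00671 (12 libraries), 0.0168 (with the score) and 0.0231 (replicate block), and Pdk1 to -0.0229 without scaling. With the libraries that carry ventricular markers left out, an alternative chosen after seeing the data, Pdp1 (0.0967) and Pdpr (0.0936) turned for ARB against SHR, Pdp2 (-0.25) for ARNI against SHR and Pdk2 (-0.0416) for ARNI against ARB.

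With 1 library left out, Pdp1 ran from -0.14 to 0.28 for SHR against WKY. For ARB against SHR the ranges were -0.58 to 0.66 (Pdk1), -0.11 to 0.29 (Pdk2), -0.32 to 0.13 (Pdk3), -0.90 to 0.33 (Pdk4), -0.18 to 0.25 (Pdp1) and -0.26 to 0.10 (Pdpr). For ARNI against SHR they were -0.53 to 1.12 (Pdk1), -0.15 to 0.44 (Pdk2), -0.84 to 0.0129 (Pdk3), -0.32 to 0.11 (Pdp1) and -0.51 to 0.88 (Pdp2), and for ARNI against ARB -0.53 to 1.05 (Pdk1), -0.22 to 0.35 (Pdk2), -0.74 to 0.10 (Pdk3), -0.32 to 0.0198 (Pdp1) and -0.13 to 1.27 (Pdp2). None of the values of the treated comparisons was called, and the causes of the changes were not tested.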
